A study of Homo sapiens with 6 samples.

Results

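TGFB1, LTBP1, LTBP3, LTBP4, TGFBR1, TGFBR2, SMAD3, SMAD7, TGFBI and BHLHE40 make up a set of 10 genes that runs from a TGF-beta ligand through its latency proteins, receptors and SMADs to target genes. They were taken by name from the 20476 genes of a count table of SW620 cells, after its Ensembl identifiers had been matched to symbols. Of these 10 genes, 9 had enough counts to be tested, among 12576 tested genes in all, and LTBP1 did not. SW620 is a human colorectal cancer line established from a lymph node metastasis. One group held a stably expressed hairpin directed at ECM1 (shECM1, 3 libraries) and the other a negative control hairpin (shNC, 3 libraries), with no other treatment named. ECM1 encodes a secreted matrix glycoprotein, and the stated purpose was to learn how it bears on the chemokine CCL20. How many hairpins or clones each group holds is not given in the sources used here.

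TGF-beta is secreted as an inactive complex in which its own propeptide encloses the ligand. Latent TGF-beta binding proteins (the LTBP family) tether that complex to the extracellular matrix, and integrins or proteases release the ligand. Active ligand binds the receptor TGFBR2, which recruits and phosphorylates TGFBR1, and TGFBR1 phosphorylates SMAD2 and SMAD3, which join SMAD4 and enter the nucleus. SMAD7 is induced by the pathway and inhibits its receptors. In intestinal epithelium the pathway restrains proliferation, and colorectal cancers often lose a part of it.

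The targeted gene, ECM1, was at 14.8, 13.6 and 8.41 CPM (counts scaled to a common library total by trimmed means) in shECM1 replicates 1, 2 and 3, against 38.8, 19.0 and 52.3 CPM in shNC replicates 1, 2 and 3. The groups did not overlap, but ECM1 was left uncalled by the edgeR quasi-likelihood test, whose p-values were adjusted by the Benjamini-Hochberg method over all tested genes (log2 fold change -1.58 ± 0.32 SE, adjusted p = 0.0973). The 6 libraries held 9881720 to 16813951 counts each. On the first principal component, with 58.1% of the variance, shNC replicate 2 lay at 8.64, near the shECM1 libraries at 16.6 to 23.3 and away from the other shNC libraries at -25.2 and -41.3. Tested members are therefore given with and without shNC replicate 2. That library was singled out from these same data, and no label gives a reason to leave it out. Leaving out the control nearest shECM1 tends to widen the difference, so calls made without it are not independent support. Of 10 epithelial markers 9 were tested, and their summed level was 10316 to 11662 CPM in shECM1 and 10641 to 15333 CPM in shNC. KRT20, a marker of differentiated colonic epithelium, was below 2 CPM in every library, whereas EPCAM, KRT8 and CDH1 were above 400 CPM in every library.

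Read per length, as CPM per kilobase of exon, the 10 genes spanned more than 3 orders of magnitude. Exon length joins all annotated exons of a gene, so it can exceed the length of the transcript expressed. The order of genes, with the comparison of TGFBR2 and TGFB1, rests on these lengths. The mean over all 6 libraries was 99.5 for BHLHE40, 53.6 for TGFBI, 30.3 for LTBP3, 18.3 for TGFBR2, 18.1 for TGFB1, 9.57 for LTBP4, 5.31 for SMAD3, 1.38 for TGFBR1, 0.839 for SMAD7 and 0.0382 for LTBP1. TGFBR2 and TGFB1, neighbours in this order, had group means in opposite orders in the 2 groups. In shNC replicate 2, however, TGFBR2 (17.5) lay above TGFB1 (15.4), as in each shECM1 library. In shECM1, TGFB1 stood at 11.8 to 14.1 CPM per kilobase and TGFBR2 above it at 16.5 to 17.4. In shNC, TGFB1 stood at 15.4 to 31.1 and TGFBR2 at 17.5 to 21.0, so these neighbours overlapped there. All other neighbours in the order were separated in both groups. If the libraries hold only transcript ends, scaling by length does not apply, and the sources used here leave the library type unclear.

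**Figure D1:**
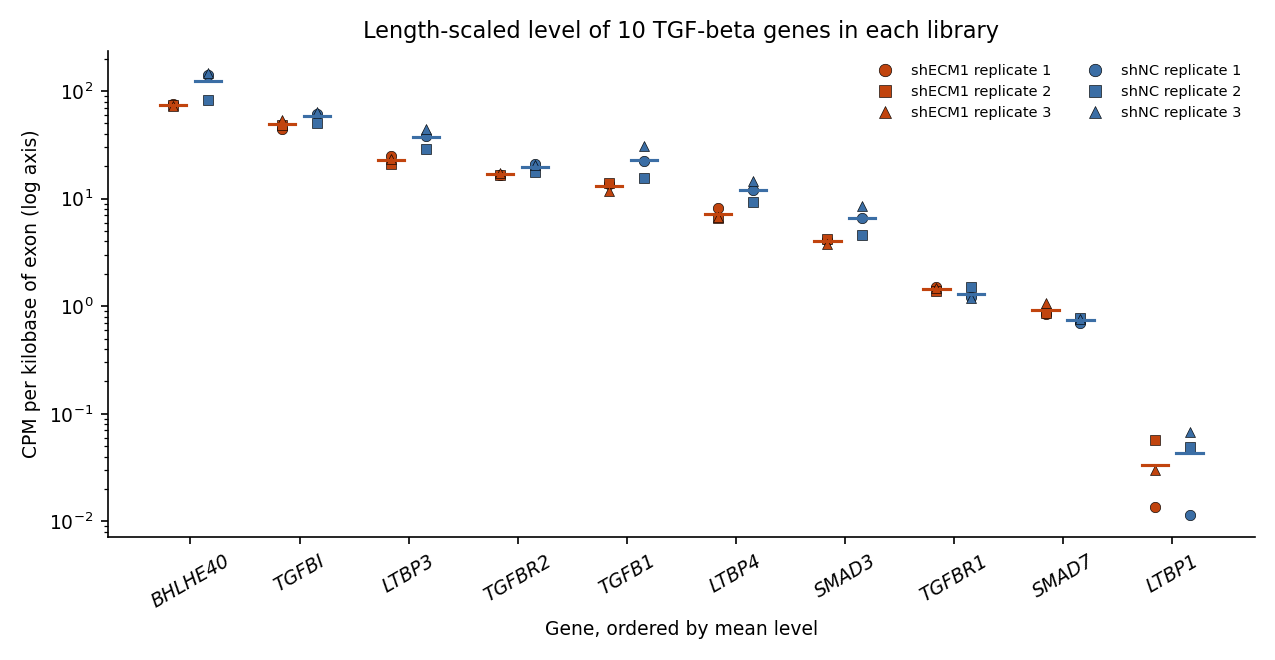
Level of each gene in CPM per kilobase of exon (log axis), with shECM1 libraries left of shNC libraries and a bar at each group mean; marker shapes give the replicate. BHLHE40 is highest (mean 99.5) and LTBP1 lowest (0.0382), and shNC replicate 2 lies nearer the shECM1 mean than shNC replicates 1 and 3 do for the 7 tested genes that those replicates hold above shECM1.

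The ligand TGFB1, both abundant latency proteins, SMAD3 and the target BHLHE40 stood lower in shECM1 by 1.62-fold to 1.74-fold, while the receptor TGFBR1 and the inhibitor SMAD7 had positive log2 fold changes. At an adjusted p under 0.05, edgeR called 0 of the 9 tested members and 0 of 12576 genes (0.00%). At an unadjusted p under 0.05 in the same test, 5 of 9 were lower, where 14.2% of all tested genes were (1782 genes). In 6 of 9 every shECM1 library lay below every shNC library, against 13.2% of all tested genes. DESeq2 called the same 5 genes lower, against 5.13% of the 11620 genes to which it gave an adjusted p. Without shNC replicate 2, edgeR called 6 lower, those 5 and TGFBI, against 14.1% of 12730 genes. The median log2 fold change of the 9 was -0.70, beside 0.01 over all tested genes with quartiles of -0.22 and 0.19. In bulk RNA, fewer expressing cells and less RNA per cell cannot be told apart.

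**Figure D2:**
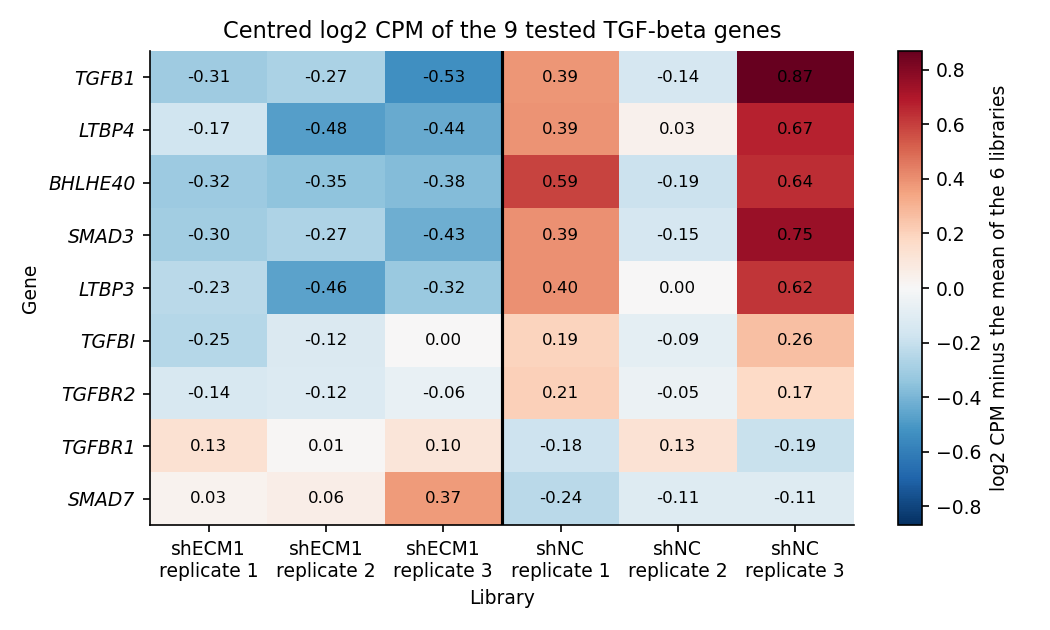
Log2 CPM of each tested gene minus its mean over the 6 libraries, with shECM1 libraries left of the line and shNC libraries right of it. TGFB1, LTBP4, BHLHE40, SMAD3 and LTBP3 share one pattern, low in the 3 shECM1 libraries and highest in shNC replicate 3. SMAD7 is higher in each shECM1 library than in each shNC library, but edgeR did not call it (adjusted p = 0.405).

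TGFB1 (ENSG00000105329, GRCh38 chromosome 19, 41301587 to 41353911, minus strand) encodes the TGF-beta ligand most widely expressed in epithelia and tumours. It was at 44.6, 45.6 and 38.1 CPM in shECM1 replicates 1, 2 and 3, against 72.1, 49.9 and 101 CPM in shNC replicates 1, 2 and 3. Each shECM1 library lay below each shNC library, although shNC replicate 2 was only just above them. The fitted log2 fold change was -0.80 ± 0.21 (SE), with a 95% interval of -1.25 to -0.34, and edgeR gave an unadjusted p of 0.00277 and an adjusted p of 0.103. DESeq2 called it lower (adjusted p = 0.00801). Without shNC replicate 2, edgeR gave -1.002 (adjusted p = 0.000773), and without shNC replicate 3 it gave -0.51. Of all tested genes, 4.26% had a more negative value than TGFB1. Its exons share 215 bases with those of HNRNPUL1 on the opposite strand, and whether counting used strand is not given in the sources used here.

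The other ligands of the family were scarce. TGFB2 was at 0.794, 0.536 and 0.293 CPM in shECM1, against 0.846, 0.144 and 0.215 CPM in shNC. TGFB3 was at 0.596, 0.238 and 0.366 CPM in shECM1, against 0.423, 0.287 and 0.644 CPM in shNC. Neither passed the count filter, and their ranges overlapped between the groups. Per length, both averaged below 0.1 CPM per kilobase, where TGFB1 averaged 18.1.

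Of the latency proteins, LTBP3 and LTBP4 carried nearly all LTBP counts and LTBP1 almost none. LTBP3 (ENSG00000168056, GRCh38 chromosome 11, 65538805 to 65558930, minus strand) was at 255, 218 and 240.1 CPM in shECM1, against 395, 301 and 461 CPM in shNC. LTBP4 (ENSG00000090006, GRCh38 chromosome 19, 40592883 to 40629818, plus strand) was at 65.9, 53.3 and 54.8 CPM in shECM1, against 97.5, 76.1 and 118 CPM in shNC. For both genes all shECM1 libraries lay below all shNC libraries, and shNC replicate 2 was the lowest control.

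LTBP3 had a log2 fold change of -0.70 ± 0.14 (SE), the smallest unadjusted p among the members (0.000513), with an edgeR adjusted p of 0.0973. LTBP4 had -0.75 ± 0.16 (SE), with an unadjusted p of 0.000576 and an edgeR adjusted p of 0.0973. DESeq2 called both lower (adjusted p = 0.00143 for LTBP3 and 0.00172 for LTBP4). Without shNC replicate 2, edgeR called both, with log2 fold changes of -0.83 for LTBP3 and -0.88 for LTBP4.

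LTBP1 (ENSG00000049323, GRCh38 chromosome 2, 32946972 to 33399509, plus strand), the founding member of the family, had 1, 7 and 3 counts in shECM1 and 1, 5 and 7 counts in shNC. It was left out by the count filter, and its summed 11 counts in shECM1 and 13 in shNC give a ratio of 0.829 with an exact 95% interval of 0.336 to 2.01, which covers counting error only. A difference of the size seen in LTBP3 was not detectable at this depth. An antisense transcript shares 249 exonic bases with LTBP1, so even these counts are uncertain.

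The receptors differed less between the groups. TGFBR1 (ENSG00000106799, GRCh38 chromosome 9, 99104038 to 99154192, plus strand), the type I receptor kinase, was at 10.3, 9.47 and 10.1 CPM in shECM1, against 8.29, 10.3 and 8.23 CPM in shNC. The groups overlapped, with shNC replicate 2 level with the highest shECM1 library, and the log2 fold change of 0.15 ± 0.17 (SE) had a 95% interval of -0.22 to 0.53 (edgeR adjusted p = 0.605). It was 0.28 without shNC replicate 2 (edgeR adjusted p = 0.263). TGFBR2 (ENSG00000163513, GRCh38 chromosome 3, 30606502 to 30694142, plus strand), the type II receptor kinase that binds the ligand, was at 77.6, 78.8 and 81.9 CPM in shECM1, against 99.0, 82.5 and 96.6 CPM in shNC. Its groups did not overlap, but shECM1 replicate 3 and shNC replicate 2 differed by less than 1 CPM. Its log2 fold change was -0.22 ± 0.11 (SE), with a 95% interval of -0.46 to 0.01 and an edgeR adjusted p of 0.247. It was -0.29 without shNC replicate 2 (edgeR adjusted p = 0.0577).

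Ratios within a library need no scaling between libraries, but they do not remove a trend with GC content, given below. TGFB1 (63.5%) and TGFBR1 (39.0%) differ in GC content, and with a GC offset their log2 fold changes were -0.57 and 0.04. The log2 ratio of TGFB1 to TGFBR1 counts was 2.11, 2.27 and 1.92 in shECM1, against 3.12, 2.28 and 3.61 in shNC, a difference of -0.91. It gave p = 0.1 in a two-sided exact permutation test (0.3 after Benjamini-Hochberg adjustment over 3 ratios), and 0.1 is the smallest p that 3 libraries against 3 can give. The log2 ratio of TGFBR1 to TGFBR2 was higher in shECM1 by 0.38 (exact permutation p = 0.3, adjusted p = 0.45). LTBP3 against LTBP1 differed by -0.43 (exact permutation p = 0.7, adjusted p = 0.7), and rested on 1 to 7 LTBP1 counts.

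The SMADs had values on both sides of 0. SMAD3 (ENSG00000166949, GRCh38 chromosome 15, 67063763 to 67195195, plus strand), a receptor-activated SMAD, was at 37.4, 38.4 and 34.4 CPM in shECM1, against 60.7, 41.7 and 77.7 CPM in shNC. Its groups did not overlap, and its libraries held the same order in shNC as those of TGFB1. LTBP3, LTBP4, TGFBI, BHLHE40 and ECM1 held that order too. The log2 fold change was -0.71 ± 0.19 (SE), with an unadjusted p of 0.00313 and an edgeR adjusted p of 0.105. It was lower by DESeq2 (adjusted p = 0.0128). Without shNC replicate 2, edgeR gave -0.90 (adjusted p = 0.000726), and without shNC replicate 3 it gave -0.48. SMAD3 shares 182 exonic bases with an antisense transcript.

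SMAD7 (ENSG00000101665, GRCh38 chromosome 18, 48919853 to 48952052, minus strand), the inhibitory SMAD, had its highest library in shECM1. It was at 4.27, 4.35 and 5.41 CPM in shECM1, against 3.55, 3.88 and 3.87 CPM in shNC. Every shECM1 library thus lay above every shNC library. The share of all tested genes separated in this direction is not given here. These levels rested on 43 to 74 counts in shECM1 and 42 to 54 in shNC. The log2 fold change of 0.31 ± 0.22 (SE) had a 95% interval of -0.16 to 0.79 (edgeR adjusted p = 0.405). It was 0.35 without shNC replicate 2 (edgeR adjusted p = 0.31).

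SMAD2, the other SMAD that TGFBR1 activates, was at 30.6, 35.2 and 31.0 CPM in shECM1, against 33.2, 32.3 and 31.6 CPM in shNC, with overlapping groups and an edgeR adjusted p of 0.983. SMAD4, their shared partner and a gene often lost in colorectal cancer, was at 2.68, 2.74 and 1.54 CPM in shECM1, against 1.02, 1.94 and 1.29 CPM in shNC. Per length, SMAD4 averaged 0.142 CPM per kilobase and SMAD2 0.889, over joined exon lengths of 13123 and 36366 bases. The SMAD4 groups overlapped (edgeR adjusted p = 0.263). SMAD6, an inhibitor tied mainly to BMP signalling, had a log2 fold change of -0.32 (edgeR adjusted p = 0.353). Over the list of 8 SMADs, 7 were tested, 3 negative and 4 positive with a median of 0.14, and SMAD3 was the only one at an unadjusted p under 0.05, a share near the 14.2% of all tested genes that were lower.

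TGFBI and BHLHE40 are targets outside the core of the pathway, and SMAD7, above, is also a target. TGFBI (ENSG00000120708, GRCh38 chromosome 5, 136028895 to 136063818, plus strand), a secreted matrix protein named for its induction by TGF-beta, was at 350, 381 and 416 CPM in shECM1, against 475, 392 and 498 CPM in shNC. shECM1 replicate 3 lay above shNC replicate 2, and the log2 fold change of -0.25 ± 0.12 (SE) had an edgeR adjusted p of 0.231. Without shNC replicate 2, edgeR called it lower at -0.33 (adjusted p = 0.0327). BHLHE40 (ENSG00000134107, GRCh38 chromosome 3, 4979116 to 4985323, plus strand), a basic helix-loop-helix repressor also induced by hypoxia, was at 292, 285 and 280.4 CPM in shECM1, against 547, 319 and 567 CPM in shNC.

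BHLHE40 spread little over the shECM1 libraries (285.9 ± 6.07 CPM, SD, n = 3) and widely over the shNC libraries (478 ± 138 CPM, SD, n = 3). The groups did not overlap, with shNC replicate 2 far below the other controls. Its log2 fold change was -0.74 ± 0.18 (SE), with an unadjusted p of 0.00161 and an edgeR adjusted p of 0.0973. It was lower by DESeq2 (adjusted p = 0.00424). Without shNC replicate 2, edgeR gave -0.95 (adjusted p = 0.000158). The antisense gene BHLHE40-AS1 shares 4 exonic bases with it.

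In all 7 tested members that shNC replicates 1 and 3 held above shECM1, shNC replicate 2 lay closer to the shECM1 mean than to the mean of those 2 replicates. On a scale with 0 at the shECM1 mean and 1 at the mean of shNC replicates 1 and 3, it stood between 0.107 for TGFBI and 0.446 for LTBP4. This position was common. Of tested genes with a log2 gap over 0.5 between shNC replicates 1 and 3 and shECM1, 81.6% had shNC replicate 2 closer to shECM1. The gaps of TGFBR2 (0.30) and TGFBI (0.35) were smaller, so these members fall outside that set.

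**Figure D3:**
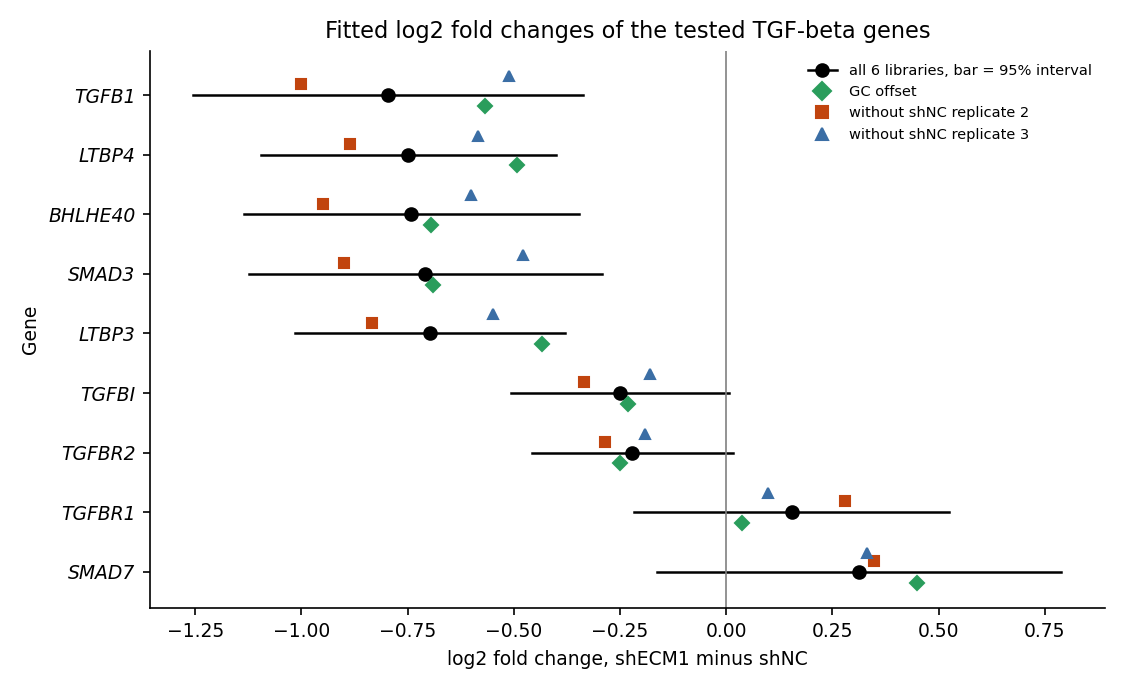
Fitted log2 fold change, shECM1 minus shNC, of the 9 tested genes with its 95% interval (black), with a GC offset (diamonds), without shNC replicate 2 (squares) and without shNC replicate 3 (triangles). Leaving out shNC replicate 2 moves TGFB1 to -1.002 and leaving out shNC replicate 3 moves it to -0.51, and no gene crosses 0.

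Fold changes across the transcriptome moved with the GC content of transcripts. Tested genes were ordered by GC content into 10 bins of equal size. The bin of lowest GC content (30.2% to 38.6%) had a median log2 fold change of 0.15. That of highest GC content (62.0% to 75.8%) had -0.21. By library, the median centred log2 CPM in those bins was 0.18 and -0.18 in shECM1 replicate 1 and 0.14 and -0.20 in replicate 2. shECM1 replicate 3 went the other way (-0.11 and 0.09), as did shNC replicates 1 (-0.11 and 0.18) and 3 (-0.10 and 0.16). shNC replicate 2 was at 0.002 and -0.015. TGFB1 (63.5%), LTBP4 (66.7%) and LTBP3 (67.8%) lay in the highest bin, while SMAD3 (50.4%), TGFBI (50.6%) and BHLHE40 (52.0%) lay in bin 6, whose median was -0.02. TGFBR1, at 39.0%, lay in bin 2, whose median was 0.12. With a per-library GC trend as an offset, the log2 fold change was -0.57 for TGFB1, -0.43 for LTBP3, -0.49 for LTBP4, -0.69 for SMAD3 and -0.70 for BHLHE40. With that offset, 6 of 9 members were lower at an unadjusted p under 0.05, TGFBR2 being added at 0.028, against 12.8% of 12502 genes, and SMAD7 was higher (unadjusted p = 0.0372). The edgeR adjusted p with the offset was at least 0.171 for each of the 9.

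**Figure D4:**
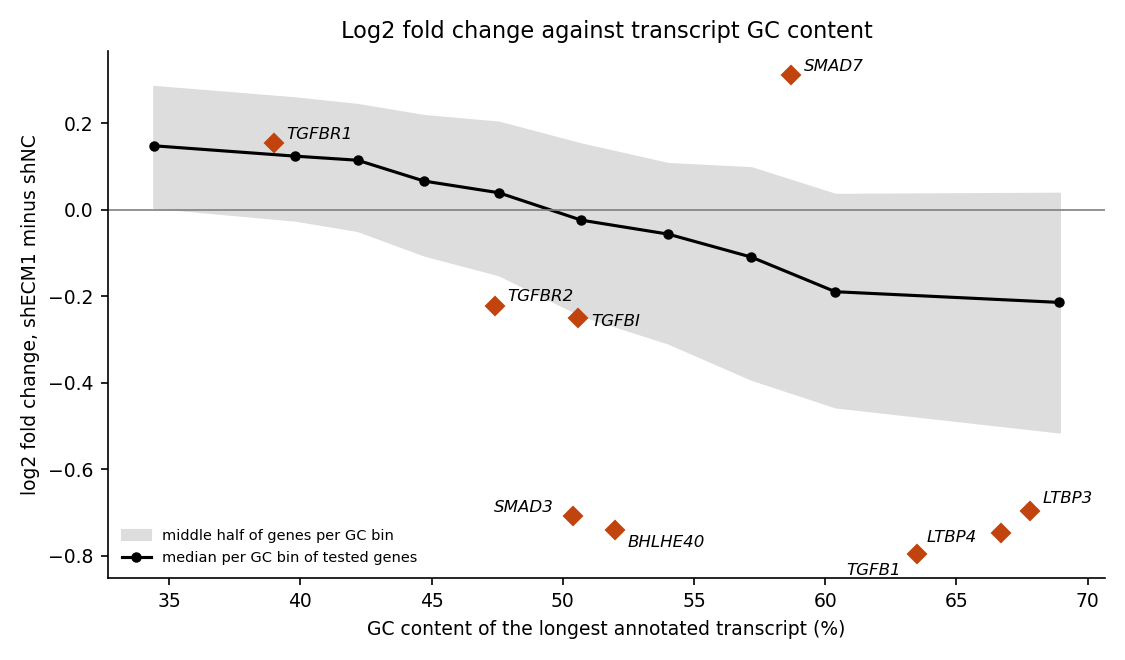
Log2 fold change, shECM1 minus shNC, against transcript GC content, with the median of each of 10 bins of tested genes (line), its interquartile range (grey) and the 9 tested TGF-beta genes (diamonds). The line runs from 0.15 to -0.21, and all 7 genes with a negative log2 fold change lie below the grey band at their own GC content, TGFBI only just.

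Promoter windows are shown for the 5 members that DESeq2 called lower. Where a gene had several windows, the one that holds the marked sequence was chosen, and the other windows of LTBP3 and LTBP4 hold 0 EGR matches. Sequences are RefSeq windows on GRCh38.p14, 250 bases before to 50 after an annotated start, 5′ to 3′ on the gene's strand. Positions count from 1 at the start, with -1 just before it. Capitals mark GCGNGGGCG or its reverse complement CGCCCNCGC, the sequence bound by EGR factors, in TGFB1, LTBP3 and LTBP4. In SMAD3 and BHLHE40 they mark the E-box CACGTG, the element that BHLHE40 itself binds.
TGFB1 (chr19:41353873-41354172, minus strand): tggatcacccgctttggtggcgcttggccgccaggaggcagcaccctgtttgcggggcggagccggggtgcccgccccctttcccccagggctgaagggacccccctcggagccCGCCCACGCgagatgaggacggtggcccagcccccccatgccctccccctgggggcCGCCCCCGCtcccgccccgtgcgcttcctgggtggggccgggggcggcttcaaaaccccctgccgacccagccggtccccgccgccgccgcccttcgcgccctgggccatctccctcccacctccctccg
LTBP3 (chr11:65558310-65558609, minus strand): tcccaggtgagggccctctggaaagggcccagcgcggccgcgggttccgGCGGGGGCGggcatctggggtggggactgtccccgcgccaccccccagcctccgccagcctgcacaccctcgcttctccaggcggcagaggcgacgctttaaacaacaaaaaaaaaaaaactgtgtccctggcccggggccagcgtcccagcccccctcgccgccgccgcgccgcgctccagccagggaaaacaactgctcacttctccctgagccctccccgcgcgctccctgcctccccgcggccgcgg
LTBP4 (chr19:40601119-40601418, plus strand): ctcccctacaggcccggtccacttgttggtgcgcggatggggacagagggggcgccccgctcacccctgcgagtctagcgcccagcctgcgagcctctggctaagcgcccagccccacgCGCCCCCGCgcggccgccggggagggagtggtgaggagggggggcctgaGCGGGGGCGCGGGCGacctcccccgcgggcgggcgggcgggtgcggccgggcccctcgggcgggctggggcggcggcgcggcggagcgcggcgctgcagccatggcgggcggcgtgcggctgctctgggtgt
SMAD3 (chr15:67065352-67065651, plus strand): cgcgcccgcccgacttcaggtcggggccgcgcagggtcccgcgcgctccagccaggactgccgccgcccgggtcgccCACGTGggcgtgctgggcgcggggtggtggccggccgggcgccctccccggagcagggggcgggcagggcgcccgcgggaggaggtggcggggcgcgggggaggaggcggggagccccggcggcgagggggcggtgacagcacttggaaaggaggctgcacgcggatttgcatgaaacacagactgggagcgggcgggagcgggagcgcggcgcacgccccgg
BHLHE40 (chr3:4979187-4979486, plus strand): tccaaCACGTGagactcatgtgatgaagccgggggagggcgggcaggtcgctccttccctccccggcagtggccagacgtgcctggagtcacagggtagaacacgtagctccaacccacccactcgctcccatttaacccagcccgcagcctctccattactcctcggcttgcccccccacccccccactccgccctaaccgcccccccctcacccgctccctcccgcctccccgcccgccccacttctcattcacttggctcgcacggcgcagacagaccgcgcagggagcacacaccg
The EGR sequence began at -136 and -80 in TGFB1, at -201 in LTBP3 and at -131, -82 and -76 in LTBP4, where the last pair overlaps. The E-box began at -173 in SMAD3 and at -245 in BHLHE40. Over 28 RefSeq windows of the 10 genes, 4 windows in 4 genes held the EGR sequence, the fourth gene being TGFBR1, and 9.43% of all 35116 RefSeq windows held it. The E-box was in 2 of the 28 windows and in 7.26% of all windows, and the AP-1 sequence TGANTCA was in 2 of 28 (TGFBR2 and SMAD3) and in 7.71% of all windows. The SMAD core GTCT or AGAC occurred in 22 of 28 windows and in 84% of all windows, and its palindrome GTCTAGAC in 0 of 28 windows and 0.202% of all windows. The GC box GGGCGG, which can overlap the EGR sequence, was in 13 of 28 windows and in 45% of all windows. A match describes letters only, and genes with several starts had more windows in which to match.

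Other genes of the pathway were read from lists of known components, some of which also hold members. Of 22 latency and activation genes, 3 are members. From this list 15 were tested, 10 negative and 5 positive with a median log2 fold change of -0.17. At an unadjusted p under 0.05, 6 were lower and 0 higher, where 14.2% of all tested genes were lower. edgeR called 7 of the list lower without shNC replicate 2, against 14.1% of 12730 genes. Both counts include the members LTBP3 and LTBP4, given above. TGM2, a transglutaminase that cross-links the latent complex to matrix, was at 9.83, 8.76 and 7.17 CPM in shECM1, against 26.6, 10.6 and 44.1 CPM in shNC. Its groups did not overlap, and it had the most negative value of the list (-1.66 ± 0.39 SE, edgeR adjusted p = 0.0973, and -2.04 without shNC replicate 2, adjusted p = 0.000186). ITGB5, an integrin subunit of an activating integrin, was at -0.45 (unadjusted p = 0.0114), and at -0.61 without shNC replicate 2 (edgeR adjusted p = 0.00155).

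Receptors and the proteins that tune SMADs stayed near the centre of all genes. The list of 14 receptors and co-receptors includes the members TGFBR1 and TGFBR2. Of these 14, 12 were tested, 6 on each side of 0 with a median log2 fold change of 0.04. At an unadjusted p under 0.05, 1 was lower, where 14.2% of all tested genes were. That gene was ENG, the co-receptor endoglin, at -0.43 (unadjusted p = 0.0381), and the co-receptor TGFBR3 was at -0.40 (unadjusted p = 0.0726). Of 22 SMAD regulators, 21 were tested with a median of -0.11, and 3 were lower and 1 higher at an unadjusted p under 0.05, a share of lower genes near the 14.2% of all tested genes. The smallest p-values of that list belonged to PMEPA1, a feedback inhibitor (-0.52), and the phosphatase CTDSP2 (-0.35). All 10 genes of the kinase branch beside SMADs were tested with a median of -0.03. MAP2K6, a p38 activator (0.34), was the only one at an unadjusted p under 0.05, and MAP2K3 was at -0.28 (unadjusted p = 0.09). Over all 12576 tested genes, 2827 were at an unadjusted p under 0.05 in either direction.

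Target genes had the most negative median among the 7 pathway lists with more than 1 gene tested. Of 23 targets, 22 were tested, 19 negative and 3 positive, where 48.6% of all tested genes were negative. Their median log2 fold change was -0.54, and 14 were lower and 0 higher at an unadjusted p under 0.05, where 14.2% of all tested genes were lower. The lists share genes, and TGM2, PMEPA1 and ID1, each given under another list, are among these 14. DESeq2 called 5 of the targets lower, against 5.13% of the 11620 genes to which it gave an adjusted p. edgeR called 16 of the targets lower without shNC replicate 2, against 14.1% of 12730 genes. COL1A1, a collagen chain, was at 9.73, 7.21 and 8.19 CPM in shECM1, against 18.1, 13.1 and 21.5 CPM in shNC, without overlap, and DESeq2 called it lower (adjusted p = 0.000833). Leaving out shNC replicate 2, edgeR called it lower too (adjusted p = 0.000681). JUNB, an AP-1 subunit, was at 33.6, 35.6 and 40.1 CPM in shECM1, against 96.1, 41.7 and 118 CPM in shNC, without overlap and with shNC replicate 2 just above shECM1. Its log2 fold change was -1.23 (edgeR adjusted p = 0.0973), and -1.54 without shNC replicate 2 (adjusted p = 9.21e-05).

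Many of these targets also answer to other pathways, and 3 of the 23 are members. Of 22 BMP and activin genes, 11 were tested with a median of -0.08, and 3 were lower at an unadjusted p under 0.05, where 14.2% of all tested genes were. ID1, a classical BMP target, was at -0.88 and GDF15, a stress-induced ligand, at -0.44. COL1A1 is also a fibroblast marker: of 10 fibroblast markers 3 were tested and PDGFRA, COL3A1, FAP and POSTN had 0 counts in every library. The 10 fibroblast markers summed to 16.7 to 20.9 CPM in shECM1 and 23.6 to 35.5 CPM in shNC, mostly from COL1A1 and LUM. LUM was at 8.56 to 10.1 CPM in shECM1 and 9.73 to 12.7 CPM in shNC. Immune markers summed to 49.1 to 78.1 CPM in shECM1 and 75.4 to 192 CPM in shNC, nearly all from CD68, with PTPRC, CD3E and MS4A1 at 0. Endothelial markers summed to 17.7 to 18.6 CPM in shECM1 and 22.2 to 35.2 CPM in shNC, with KDR at 0. Most of that came from EGFL7, at 8.84 to 9.18 CPM in shECM1 and 9.55 to 21.3 CPM in shNC, and from VWF. VWF was at 5.76 to 6.73 CPM in shECM1 and 6.77 to 9.19 CPM in shNC. The part of these cell types in the results was not tested.

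**Figure D5:**
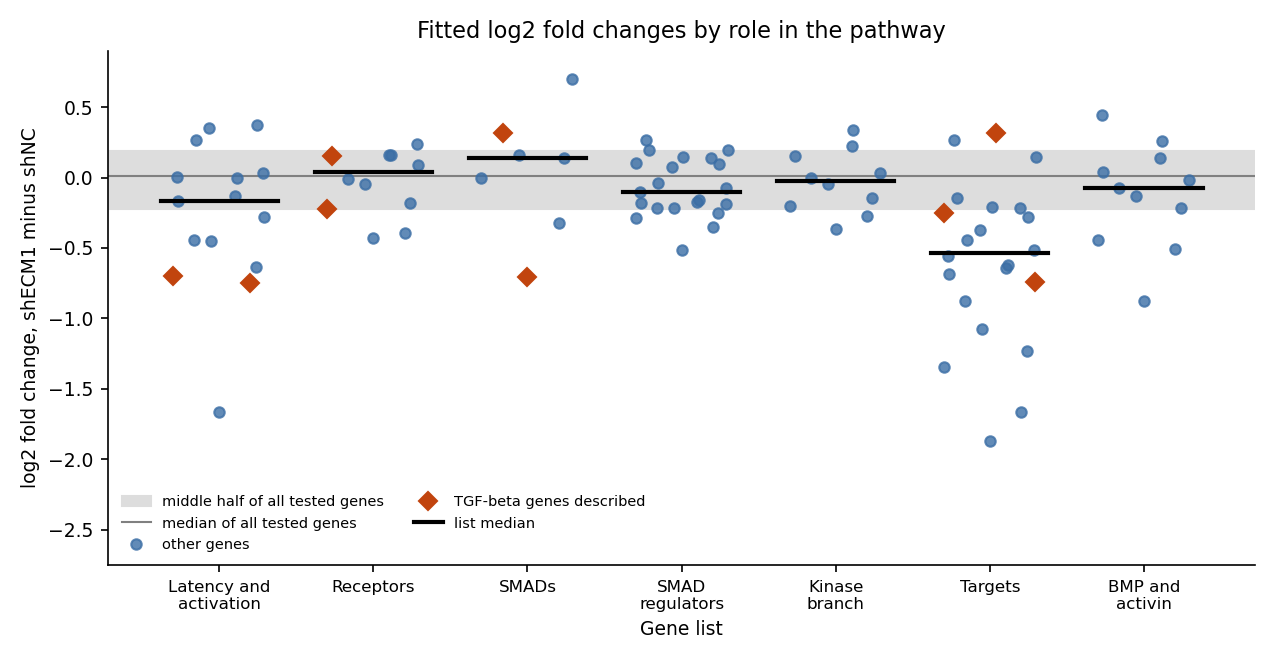
Log2 fold change, shECM1 minus shNC, of every tested gene by its role in the pathway (the ligand list, with TGFB1 alone tested, is left out), with members of the 10-gene set as diamonds, list medians as bars and the interquartile range of all tested genes in grey. The target list has a median of -0.54, and the receptor and SMAD lists have medians of 0.04 and 0.14.

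The 5 genes with the pattern most like that of TGFB1 over the 6 libraries, by the root mean square difference of centred log2 CPM, were ZFP36L1 (0.043), SH3PXD2A (0.047), NDRG1 (0.051), EPHA2 (0.051) and TBC1D10A (0.056). ZFP36L1, which encodes an RNA-binding protein that promotes decay of AU-rich transcripts, was at 135, 133 and 109.7 CPM in shECM1, against 212, 139 and 306 CPM in shNC. Among the members, SMAD3 was nearest to TGFB1, at rank 10 of 11521 genes with a difference of 0.066. BHLHE40 ranked 209, LTBP4 245 and LTBP3 316, while TGFBR1 and SMAD7 ranked 8566 and 9077. Likeness over 6 libraries describes these libraries only.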

How the data were processed

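The deposited values are raw counts, whole numbers per Ensembl gene and library. The submitters' processing notes name the tools fastp, STAR, featureCounts, DESeq2 and Seurat and the builds GRCh38 and hg38. What each tool did, its version, the annotation release and the strand setting were not given in the sources used here. The extraction described is of total RNA, per the labels' protocols, yet the library step described is a droplet single-cell one. The library type is thus unclear, and each column was analysed as 1 library. The table's columns carry a letter and a number that were matched to the sample titles. That match was inferred from names alone. ECM1, the hairpin's target, was at 8.41 to 14.8 CPM in the columns read as shECM1 and 19.0 to 52.3 CPM in those read as shNC. Were the letters to mean the opposite groups, every direction would turn round. No label says that replicates were separate cultures. Spread between the samples, possibly technical, is therefore all that the p-values measure.

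The quasi-likelihood test of edgeR 4.0.16 (R 4.3.3) was applied after filterByExpr and TMM scaling (trimmed means), and p-values were adjusted over 12576 genes by Benjamini-Hochberg with a threshold of 0.05. Log2 fold changes are shECM1 minus shNC. Their standard errors were taken as the fold change over the root of the F statistic. CPM uses TMM-scaled totals, and exon length, transcript GC content and positions come from GENCODE release 29. Library totals of 9881720 to 16813951 counts give members other than LTBP1, SMAD7 and TGFBR1 at least 377 counts in every library. DESeq2 1.42.0, limma-voom (limma 3.58.1), other scalings, filters and dispersion fits, a GC offset, a replicate block and leaving out each library were alternatives. No label pairs the libraries. The procedure was tested on simulated counts.

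The named genes were all 10 members, ECM1, the 2 genes of smallest p outside the members in each pathway list, SMAD2, SMAD4, TGFB2, TGFB3 and the 5 genes nearest to TGFB1 in pattern, at a mean log2 CPM of at least 1 with a prior count of 2. 1 further gene that the rule names is not reported here. Marker genes named beside them were chosen after their values were seen. The members, lists and tests were chosen with earlier results of these data known, so they are not independent support for a direction.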

Additional observations from a re-analysis of the deposited data

How the results depend on the processing

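All 9 tested members kept their direction under each of the 20 alternatives run. The calls did not hold still. With all 6 libraries, edgeR called 0 genes and 0 members, with 2827 genes and 5 members at an unadjusted p under 0.05. It called 505 genes and 5 members with no count filter, and 3270 genes and 7 members with a GC offset and without shNC replicate 2, where 5016 genes and 8 members had an unadjusted p under 0.05. DESeq2 called 717 genes and 5 members, and 2681 genes and 6 members without shNC replicate 2. Leaving out 1 library gave edgeR 0 to 3037 genes called, 0 to 6 members called, and 1433 to 4748 genes and 5 to 7 members at an unadjusted p under 0.05. The highest counts came without shNC replicate 2, and leaving out any other library gave 0 calls.

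The ECM1 log2 fold change was -1.58 and uncalled. It was called with no count filter (-1.58), by DESeq2 (-1.57), by edgeR without shNC replicate 2 (-1.88), by DESeq2 without it (-1.89) and with a GC offset without that library (-1.76), and leaving out 1 library gave -1.88 to -1.24. The log2 ratio of TGFB1 to TGFBR1 ran from -1.27 to -0.60, that of TGFBR1 to TGFBR2 from 0.28 to 0.57 and that of LTBP3 to LTBP1, which changed sign, from -1.02 to 0.37.

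With the replicate number as a replicate block, edgeR called 0 genes, 2414 genes and 5 members had an unadjusted p under 0.05, and TGFB1 was at -0.74. With the GC offset and the replicate block, 1910 genes and 4 members did, TGFB1 being lost at -0.54 (unadjusted p = 0.0666). Same-numbered libraries deviated with correlations of -0.07, -0.05 and -0.18, and 0 of the 3 pairs passed 0.1, so the numbers were not read as pairs. TGFBI was called in 3 alternatives and TGFBR2 in 1, and LTBP1 was too shallow to test. The cause of these changes was not tested.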
